A study of Mus musculus with 30 samples.

Results

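The milk protein genes examined were the 4 casein genes Csn1s1, Csn1s2a, Csn2 and Csn3, together with Lalba and Btn1a1. They were chosen by name, and all 6 were found among the 11137 genes of the table of normalized counts. Their levels were followed in 30 libraries of FACS-sorted luminal and basal mouse mammary cells, from virgin and parous females of 2 genotypes. The question was how far these genes were transcribed outside lactation, in which lineage, and whether luminal Rank deletion changed this.

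All mice carried a doxycycline-inducible Cre driven by the Krt8 promoter (K8rtta:TET-O-CRE) and the mTmG reporter, in which recombined cells turn from tdTomato to GFP. K8iΔRank mice also carried the Rank fl/fl allele, so that Cre removed Rank, the receptor for Rankl, from luminal cells alone, whereas K8imTmG mice served as controls with intact Rank. Every mouse received doxycycline in the drinking water (1 mg/ml), which the labels place between weeks 3 and 8 of age and the methods of the study start a week later. Parous glands were taken 30 days into involution, long after milk removal had ended, and K8iΔRank females are described as unable to nurse their first litter, so suckling differed between the genotypes as well as Rank. Luminal libraries came from 3 virgin K8imTmG, 3 virgin K8iΔRank, 5 parous K8imTmG and 4 parous K8iΔRank mice. Basal libraries came from 3, 4, 4 and 4 mice in the same order, and 13 mice gave both lineages.

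Caseins are the main proteins of milk and form calcium-carrying micelles. The αs1-, αs2- and β-caseins (Csn1s1, Csn1s2a, Csn2) make up the micelle interior, whereas κ-casein (Csn3) coats its surface and keeps it in solution. α-lactalbumin (Lalba) is the regulatory subunit of lactose synthase, and butyrophilin (Btn1a1) is a membrane protein needed for the release of milk fat droplets. In pregnancy, prolactin acts through its receptor Prlr and the transcription factor Stat5a, with Elf5, to switch on this programme in luminal alveolar cells. After weaning most alveolar cells die, and basal cells are contractile and are not known as a source of milk.

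The 4 casein genes lie in one cluster on chromosome 5 of GRCm39, from 87814067 to 88080524. Csn1s1 (ENSMUSG00000070702.10) occupies 87814067 to 87830437 on the plus strand. Csn2 (ENSMUSG00000063157.10) follows from 87840483 to 87847489 on the minus strand and Csn1s2a (ENSMUSG00000061937.8) from 87922426 to 87936656 on the plus strand. Csn3 (ENSMUSG00000001622.16), at the far end, lies from 88073438 to 88080524 on the plus strand. Lalba (ENSMUSG00000022991.6) is on chromosome 15 (98378281 to 98380602, minus strand) and Btn1a1 (ENSMUSG00000000706.17) on chromosome 13 (23641162 to 23650071, minus strand).

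Since the αs- and β-casein genes moved together below, their promoters were searched for TTCNNNGAA, the core sequence recognised by Stat5, which reads the same on both strands. RefSeq promoters (GRCm38.p6, 250 bases before to 50 bases after a start) were at hand for Csn1s1, Csn1s2a, Csn2 and Lalba, whereas Csn3 and Btn1a1 were not matched. The core was present once in each of the 3 αs- and β-casein promoters and was not in the Lalba window, and it was found in 8.30% of all 32851 promoters and in 6.54% of the 11192 promoters of genes in the table. The matches are shown with their neighbouring bases, in the direction of transcription, with the core in capitals. They lay 96 bases before the start of Csn1s1 (chr5:87666102-87666122, plus strand), 89 bases before the start of Csn2 (chr5:87699504-87699524, minus strand) and over base 25 of the Csn1s2a transcript (chr5:87774464-87774484, plus strand).
Csn1s1: taacaaTTCTTAGAAtttatg
Csn2: gtagacTTCTTGGAAttgaag
Csn1s2a: agtgctTTCTTAGAAttacaa
The core of Csn1s1 and of Csn1s2a had the same 9 letters. A match describes these letters alone and does not show that a factor was bound.

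Depth and library structure limit some comparisons. Recovered reads ranged from 340445 to 3130419 per library, so that 1 read was worth 0.381 to 5.43 normalized counts, and the basal virgin K8imTmG libraries of mice 568 and 538 were the shallowest. A value under 3 reads was treated as below the floor, which lay at 4.31 to 16.3 normalized counts in those 3 basal libraries and at 1.57 to 2.21 in the virgin K8imTmG luminal ones. Each 3′ read stands for 1 transcript, so levels of different genes were compared without correction for length. The libraries also split on Clec2d, a lectin gene whose level was 0.641 to 8.68 in 16 libraries and 65.6 to 199 in 14, with no label for the split. All virgin K8imTmG luminal and all virgin K8iΔRank basal libraries were low, and all virgin K8iΔRank luminal and all K8imTmG basal libraries were high. The split therefore cannot be told apart from genotype in virgin cells, from parity in K8iΔRank luminal cells or from lineage in virgin mice, and values within 1 side are given where both sides had libraries. The 2 Clec2d-high parous K8imTmG luminal libraries came from mice 494 and 557. Rank itself (Tnfrsf11a) was at 9.57 to 18.6 in virgin K8imTmG and 11.5 to 23.8 in virgin K8iΔRank luminal libraries, and at 12.8 to 64.9 and 27.0 to 41.1 in the parous ones. Reads from the 3′ end do not show whether inner exons were removed, so this level does not check the deletion and genotypes are those of the labels. None of the 18 luminal markers was at 0 throughout a group, and they summed to 7713 to 24466 in luminal libraries, against 940 to 2695 in basal libraries. The 12 basal markers summed to 11782 to 18555 in basal libraries and to 82.0 to 351 in luminal ones.

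Csn1s1, Csn3, Lalba and Btn1a1 were read in every luminal library, whereas Csn1s2a and Csn2 had 0 to 4 reads in each virgin one. Together the 6 genes took 0.0255% to 0.0700% of the reads of virgin K8imTmG luminal libraries, 0.111% to 0.185% in virgin K8iΔRank, 0.320% to 0.759% in parous K8imTmG and 0.155% to 0.369% in parous K8iΔRank. In basal libraries the share was 0.00117% to 0.00434% in virgin K8imTmG and 0.00212% to 0.00266% in virgin K8iΔRank. It was 0.00422% to 0.0252% in parous K8imTmG and 0.0115% to 0.0288% in parous K8iΔRank. Csn3 was the highest of the 6 genes in all 13 virgin libraries of both lineages and in all 4 parous K8iΔRank luminal libraries. In parous K8imTmG mice Csn1s1 was the highest in 4 of 5 luminal and 4 of 4 basal libraries.

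**Figure D1:**
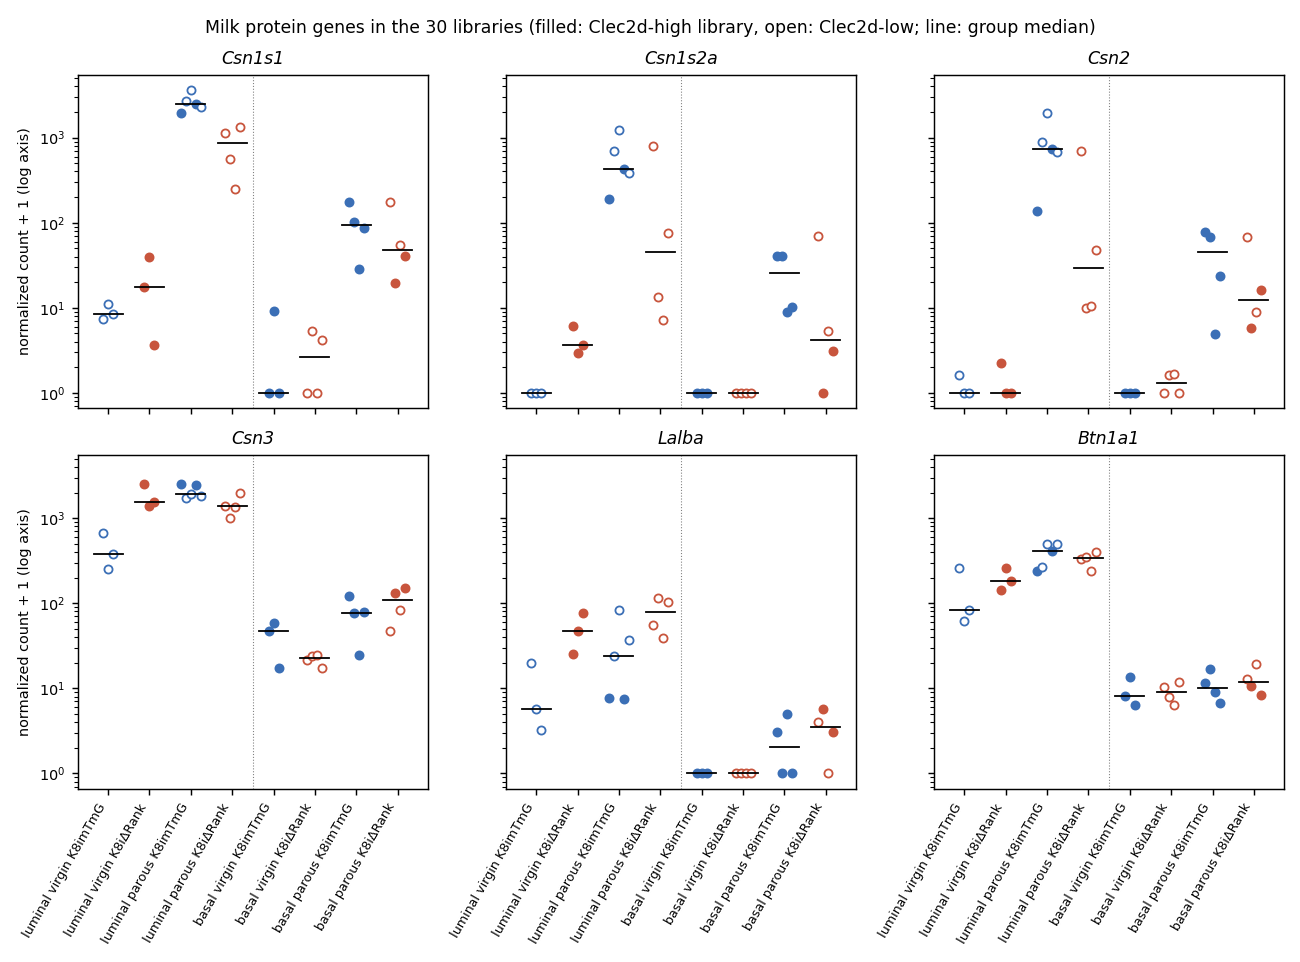
Normalized count plus 1 of each milk protein gene (log axis) in the 30 libraries by lineage, stage and genotype, with 1 point per library, filled where Clec2d was high and open where it was low, and a line at the group median. Csn1s1, Csn1s2a and Csn2 are near the bottom of the axis in virgin libraries and high in parous K8imTmG luminal ones, whereas Csn3 and Btn1a1 are already high in virgin luminal libraries. In the other parous groups some points of Csn1s2a and Csn2 are low.

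The first comparison asked what remained of the milk programme in luminal cells after a pregnancy in control mice. Csn1s1 was at 6.41, 9.96 and 7.36 normalized counts in the virgin K8imTmG luminal libraries of mice 531, 533 and 538. It was at 1964, 2664, 3662, 2515 and 2265 in the parous libraries of mice 494, 532, 534, 557 and 558. Every parous library thus held far more Csn1s1 than any virgin one, a separation shown by 16.3% of all 11137 genes in this comparison, and the log2 fold change was 8.18 ± 0.25 (standard error, adjusted p = 1.02e-07). Of the 6 milk protein genes 4 rose with parity in K8imTmG luminal cells, all of them caseins, whereas 2.20% of all genes tested changed there.

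The αs2- and β-casein genes went from at most 1 read per library to the levels of abundant genes. Csn1s2a had 0 reads in all 3 virgin libraries and was at 190, 694, 1226, 422 and 388 in the 5 parous ones, in the order of mice above. Against a floor of 3 reads per library its parous mean of 584 ± 401 (SD, n = 5) was at least 307-fold higher. The log2 fold change with limma was 8.92 ± 0.50 (adjusted p = 2.42e-05). Csn2 had 1 read in the virgin library of mouse 531 and 0 in the other virgin libraries, and it was at 138, 889, 1955, 741 and 672 in the parous ones, so the groups were far apart. The 8520 reads of the 5 parous libraries stood against 1 read in the virgin ones. This was a ratio of 5149 after scaling for library size, with a counting interval from 924 to 203401. The log2 fold change of Csn2 with limma was 9.12 ± 0.67 (adjusted p = 2.67e-04). The study used Csn2 to tell virgin from parous samples, so its difference is a check of the labels as much as a result.

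The spread among the 5 parous control mice differed between genes. The highest parous K8imTmG luminal library exceeded the lowest by 1.86 times for Csn1s1, 6.46 times for Csn1s2a, 14.2 times for Csn2 and 12.8 times for Lalba, against 1.49 times for Csn3 and 2.10 times for Btn1a1. Mouse 534 was highest and mouse 494 lowest for all 3 of Csn1s1, Csn1s2a and Csn2. Over the 9 parous luminal libraries Csn1s2a and Csn2 had Pearson's r = 0.98 and Spearman's rho = 0.93 on the log2 scale, and r = 0.97 without the 2 libraries farthest from the median of Csn1s2a. These libraries share lineage and stage and include both genotypes, and the correlation is given as a description.

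κ-casein behaved differently, since it was abundant before any pregnancy. Csn3 was at 671, 249 and 373 in the virgin K8imTmG luminal libraries and at 2539, 1702, 1898, 2422 and 1798 in the parous ones, again with no overlap. Its log2 fold change was 2.36 ± 0.32 (adjusted p = 0.0227), and the adjusted p was 0.0549, 0.0785 and 0.101 without parous mouse 532, virgin mouse 533 or virgin mouse 538. Btn1a1 was at 261, 60.8 and 83.2 in virgin and 235, 265, 495, 409 and 493 in parous libraries, where virgin mouse 531 overlapped with the parous range. Its log2 fold change of 1.71 ± 0.46 did not pass (adjusted p = 0.0800), but it did with DESeq2 on the recovered reads (adjusted p = 0.0278), with all 30 libraries in one fit (0.00723) and without parous mouse 494 (0.0435). Lalba was at 18.6, 4.72 and 2.21 in virgin and 6.72, 23.2, 82.1, 6.39 and 35.5 in parous libraries, and these ranges overlapped. Its log2 fold change was 1.57 ± 0.86 (adjusted p = 0.314).

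Within the Clec2d-low libraries alone, with 3 mice in each group, 5 of the 6 genes rose with parity in K8imTmG luminal cells. In that fit 1285 of 10014 genes tested changed, against 226 of 10279 with all libraries of the 2 groups. The fifth was Lalba, with a log2 fold change of 2.56 (adjusted p = 0.0485). The 2 Clec2d-high parous libraries held the 2 lowest Lalba and the 2 highest Csn3 values of their group, and they were the 2 shallowest, with 943438 and 534445 reads. The summed luminal markers moved with parity too, from 18710 to 24466 in virgin to 7713 to 15856 in parous K8imTmG luminal libraries, in the direction opposite to the caseins. Their part in the result was not tested. In such bulk samples more alveolar cells and more RNA per cell cannot be told apart.

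Parity was then compared in luminal cells labelled K8iΔRank. Csn1s1 was at 16.4, 38.5 and 2.64 in the virgin libraries of mice 821, 822 and 825, and at 1146, 566, 249 and 1327 in the parous libraries of mice 787, 794, 798 and 830. All 4 parous libraries exceeded all virgin ones, where 28.3% of all genes did not overlap, and Csn1s1 rose by 5.65 ± 0.73 on the log2 scale (adjusted p = 0.00211). Of the 6 genes 2 rose, Csn1s1 and Csn2, where 16.0% of all genes tested changed. Every virgin library here was Clec2d-high and every parous one Clec2d-low, so parity and the split cannot be told apart.

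For the αs2- and β-casein genes a single parous mouse stood far above the other parous ones. Csn2 was at 694 in the parous K8iΔRank luminal library of mouse 787 but at 8.84, 9.48 and 46.7 in mice 794, 798 and 830, and at 1.26, 0 and 0 in the virgin libraries. All parous values still lay above the virgin ones, with a log2 fold change of 5.03 ± 1.22 (adjusted p = 0.0207). Csn1s2a followed the same mice, with 789 in mouse 787 and 12.3, 6.13 and 75.5 in the others, against 5.05, 1.92 and 2.64 in virgin libraries. Its log2 fold change of 3.61 ± 1.25 did not pass (adjusted p = 0.0687), whereas DESeq2 called it (adjusted p = 0.00355) and so did limma without mouse 798 (0.0274). Without virgin mouse 821 or 825 the call of Csn2 was lost (adjusted p = 0.0508 and 0.0550), and without mouse 787 or 830 it did not pass the filter on low values.

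The remaining 3 genes were high at both stages in K8iΔRank luminal cells. Csn3 was at 2510, 1398 and 1559 in virgin and 1385, 1004, 1368 and 1996 in parous libraries, and the groups overlapped. Its log2 fold change was -0.34 ± 0.27 (adjusted p = 0.416), with a 95% interval from -0.93 to 0.26. Lalba was at 24.0, 46.1 and 75.3 in virgin and 54.0, 115, 38.5 and 103 in parous libraries, with a log2 fold change of 0.67 ± 0.43 (adjusted p = 0.301). Btn1a1 was at 143, 258 and 184 in virgin and 326, 349, 240 and 400 in parous libraries, where only mouse 798 fell within the virgin range. Its log2 fold change was 0.77 ± 0.24 (adjusted p = 0.0525), and DESeq2 called it (adjusted p = 0.0362).

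**Figure D2:**
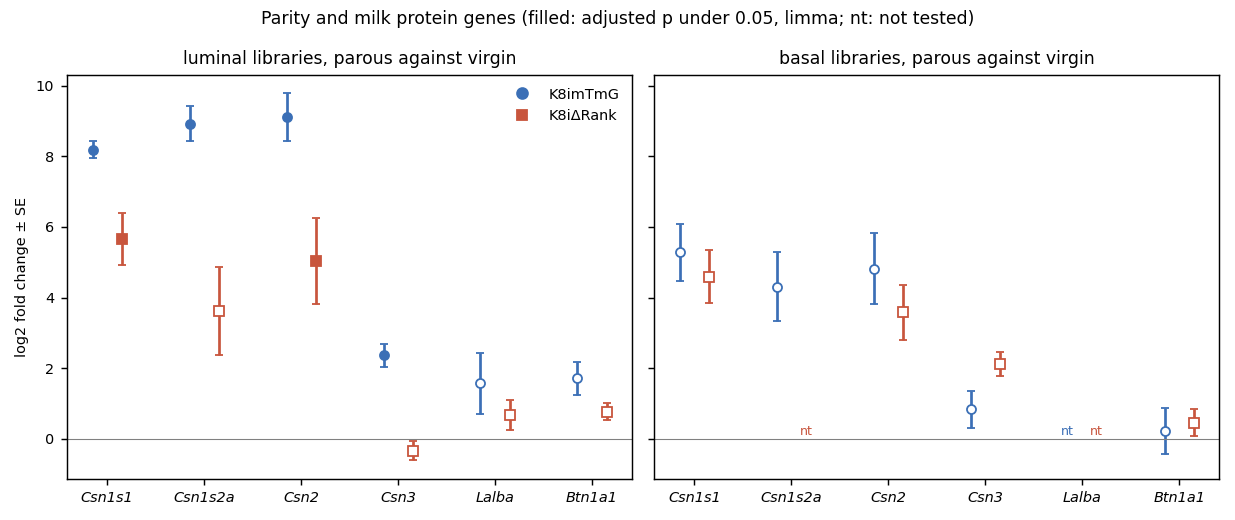
Log2 fold change of parous against virgin libraries for each milk protein gene, with its standard error, in luminal (left) and basal (right) cells of both genotypes. Filled symbols passed the adjusted p of 0.05 with limma, and "nt" marks genes that did not pass the filter on low values. The luminal values of Csn1s1, Csn1s2a and Csn2 are 8.18 to 9.12 in K8imTmG and 3.61 to 5.65 in K8iΔRank, and Csn3 stands at 2.36 and -0.34.

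Whether the effect of parity differed between genotypes was tested by the interaction over the 15 luminal libraries. The interaction was called for Csn1s2a and Csn3, that is 2 of the 6 genes, against 12.9% of all genes tested. For Csn3 it was -2.70 ± 0.45 (adjusted p = 0.00765), and it passed in all fits with 1 library left out. Virgin K8imTmG and parous K8iΔRank luminal libraries were all Clec2d-low and virgin K8iΔRank ones all high. The split thus changed along with this contrast, which leaving out 1 library does not address, and its part was not tested. In parous K8imTmG mice the 2 Clec2d-high libraries held the highest Csn3 values, 2539 and 2422. For Csn1s2a it was -5.31 ± 1.53 (adjusted p = 0.0359), but the virgin K8imTmG libraries were all at 0 reads, so this size depends on the pseudocount. That call was lost with a pseudocount of 4 (adjusted p = 0.0713), with edgeR on the recovered reads (0.308) and in 8 of the 15 fits with 1 library left out. The interaction was -2.53 ± 0.87 for Csn1s1 (adjusted p = 0.0640) and -4.08 ± 1.56 for Csn2 (adjusted p = 0.0868). For Csn1s1 it passed with DESeq2 (adjusted p = 0.00455), edgeR (0.0399) and a pseudocount of 4 (0.0408). The values for Lalba and Btn1a1 were -0.89 ± 1.07 (adjusted p = 0.593) and -0.94 ± 0.57 (adjusted p = 0.263).

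The genotypes were next compared directly in virgin luminal cells, where no pregnancy had occurred. Of the 6 genes 4 passed the filter on low values and 1, Csn3, was higher in K8iΔRank, where 0.984% of all genes tested changed. The 3 K8iΔRank values of Csn3 (1398 to 2510) lay above the 3 control values (249 to 671), where 26.9% of all genes did not overlap, and the log2 fold change was 2.15 ± 0.37 (adjusted p = 0.0349). This call was lost without the filter (adjusted p = 0.0898) and in 5 of the 6 fits with 1 mouse left out, where the adjusted p reached 0.150 without K8iΔRank mouse 821. The 3 K8iΔRank values of Lalba also exceeded the 3 control values, with a log2 fold change of 2.66 ± 0.66 (adjusted p = 0.0692) that DESeq2 called (adjusted p = 0.00465). Csn1s1 and Btn1a1 overlapped between genotypes, with log2 fold changes of 0.63 ± 0.77 and 0.78 ± 0.48 and 95% intervals from -1.08 to 2.33 and from -0.29 to 1.84. Csn1s2a, at 1 to 4 reads in each K8iΔRank library and 0 in the controls, and Csn2 were not tested. All control libraries here were Clec2d-low and all K8iΔRank libraries Clec2d-high, and the basal markers summed to 104 to 117 in the former and 121 to 351 in the latter. Genotype and the split cannot be told apart, and the part of the basal markers was not tested.

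In parous luminal cells 0 of the 6 genes passed between genotypes with limma, where 0.0991% of all genes tested changed, which was 10 of 10090. At an unadjusted p under 0.05, 5 of the 6 genes and 2009 of all genes were past it. DESeq2 called 1 of the 6 genes and edgeR 0. Each K8iΔRank value of Csn1s1 (249 to 1327) lay below each control value (1964 to 3662), where 9.46% of all genes did not overlap, and the log2 fold change was -1.91 ± 0.44 (adjusted p = 0.0983, 0.00501 with DESeq2). For Csn1s2a and Csn2 the log2 fold changes were -3.31 ± 1.16 (adjusted p = 0.166) and -3.93 ± 1.17 (adjusted p = 0.132). K8iΔRank mouse 787 lay within the range of the controls for both genes, whereas the other 3 K8iΔRank mice lay below every control. With all 30 libraries in one fit Csn2 passed (adjusted p = 0.0369). Csn3 differed by -0.55 ± 0.24 (adjusted p = 0.231) and Btn1a1 by -0.16 ± 0.26 (adjusted p = 0.754), with 95% intervals from -1.07 to -0.03 and from -0.74 to 0.42. Lalba stood on the other side, with 1.76 ± 0.68 (adjusted p = 0.195). Among the Clec2d-low libraries alone, 3 against 4 mice, limma also called 0 of the 6 genes, where 42 of 10101 genes tested changed. The adjusted p was 0.0676 for Csn1s1 and 0.0810 for Csn2.

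The same comparisons were made in basal cells, which lie outside the secretory lineage. In virgin basal libraries Csn1s2a and Lalba had 0 reads in all 7 mice, and Csn2 had 0 reads in K8imTmG and 1 read in each of 2 K8iΔRank mice. Csn1s1 had 2 reads in virgin K8imTmG mouse 538 and 0 in mice 531 and 568. In the parous K8imTmG basal libraries of mice 532, 534, 557 and 558 it was at 176, 102, 27.9 and 85.3 normalized counts, from 84, 38, 7 and 75 reads. Every parous basal library thus held more Csn1s1 than any virgin one, and 9.11% of all genes did not overlap between the stages in K8imTmG basal cells.

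With limma 0 of the 5 milk protein genes tested passed for parity in K8imTmG basal cells, where 0% of all genes tested did. At an unadjusted p under 0.05, 3 of the 5 and 969 of all genes were past it, whereas DESeq2 called 44 genes in all and edgeR 8, with Csn1s1 among both. For Csn1s1 the log2 fold change was 5.29 ± 0.81 (adjusted p = 0.10), against 0.0129 with DESeq2 and 0.0349 with edgeR, and 0.00715 with limma without virgin mouse 538. Its 204 parous reads stood against 2 virgin reads, a scaled ratio of 57.8 with a counting interval from 15.8 to 480. Csn1s2a was at 39.8, 40.1, 7.96 and 9.10 in the parous libraries. Their mean of 24.2 was at least 2.20-fold above the mean floor of the virgin ones, but 7.96 and 9.10 lay below it. The log2 fold change with limma was 4.30 ± 0.97 (adjusted p = 0.223). Csn2, at 77.4, 66.9, 3.98 and 22.8, had a mean of 42.8, at least 3.89-fold above that floor, but 3.98 lay below it. Its log2 fold change was 4.82 ± 1.01 (adjusted p = 0.203). The shallow virgin libraries limit what can be said here, since their floor averaged 11.0 normalized counts.

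Csn3 was the only milk protein gene that reached the floor in all 3 virgin K8imTmG basal libraries, with 46.0, 57.9 and 16.3, the last from 3 reads. It was at 119, 74.9, 23.9 and 77.4 in the parous ones, where the ranges overlapped, and its log2 fold change was 0.84 ± 0.52 (adjusted p = 0.620). Btn1a1 stayed at 5.43 to 16.0 in these 7 libraries, with a log2 fold change of 0.23 ± 0.65 (adjusted p = 0.931). Lalba had at most 1 read in any of them and was not tested.

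In K8iΔRank basal cells Csn1s1 was at 0, 4.34, 0 and 3.22 in virgin mice 820, 821, 822 and 825. In parous mice 787, 794, 798 and 830 it was at 174, 18.3, 54.1 and 39.8, from 406, 23, 123 and 77 reads. The 4 parous libraries all lay above the 4 virgin ones, where 6.04% of all genes did not overlap, with a log2 fold change of 4.59 ± 0.76 (adjusted p = 0.197). Csn2 was at 66.1, 4.78, 7.92 and 15.0 in the parous libraries and at no more than 0.677 in the virgin ones. The scaled ratio was 64.9 with a counting interval from 17.7 to 540, and the log2 fold change was 3.58 ± 0.78 (adjusted p = 0.284). Csn3 was at 20.8, 22.9, 23.7 and 16.1 in virgin and 46.3, 132, 81.4 and 151 in parous libraries, again apart, with a log2 fold change of 2.12 ± 0.35 (adjusted p = 0.197). Thus 0 of the 4 genes tested passed with limma, where 0% of all genes tested did, although 3 of the 4 and 1036 of all genes had an unadjusted p under 0.05. DESeq2 called those 3 genes (adjusted p = 0.00306 for Csn1s1, 0.00124 for Csn2 and 3.48e-05 for Csn3) among 91 in all, and edgeR called 0. Csn1s2a, at 68.6, 0, 4.40 and 2.07 in the parous libraries, and Lalba, with 7, 6, 0 and 4 reads, did not pass the filter on low values.

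Of the virgin and parous K8iΔRank basal libraries, 4 and 2 were Clec2d-low, and within these 6 limma called 0 of the 3 genes tested. There 2 of the 3 had an unadjusted p under 0.05, against 510 of 10283 over all genes, of which limma called 0. The log2 fold change was then 5.49 for Csn1s1 and 1.53 for Csn3 (adjusted p = 0.947 for both). The summed luminal markers were at 1043 to 2213 in virgin and 1570 to 1843 in parous K8iΔRank basal libraries, and at 1136 to 2695 and 940 to 1338 in the K8imTmG ones. The median log2 fold change with parity was 0.67 over the 17 luminal markers tested in K8iΔRank basal cells, the same direction as the caseins, and -0.90 over the 15 tested in K8imTmG basal cells. None of the 18 luminal markers was at 0 throughout a basal group, and their part in the result was not tested.

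Between genotypes in virgin basal cells, 0 of the 2 genes tested passed with limma, DESeq2 or edgeR, and 0 had an unadjusted p under 0.05, where 8.99% of all genes tested changed. Csn3 differed by -0.74 ± 0.44 (adjusted p = 0.285) and Btn1a1 by -0.01 ± 0.55 (adjusted p = 0.989), with 95% intervals from -1.73 to 0.24 and from -1.25 to 1.22. Of the other 4 genes, Csn1s1 reached 3 reads in 2 of the 7 libraries and the remaining 3 genes in 0. Between genotypes in parous basal cells 0 of the 5 genes tested passed with any of the 3 tools, and 0 had an unadjusted p under 0.05, where 0.906% of all genes tested changed. The log2 differences were -0.64 ± 0.62 for Csn1s1, -1.76 ± 1.06 for Csn1s2a and -0.88 ± 0.87 for Csn2, with 95% intervals from -1.99 to 0.70, from -4.05 to 0.53 and from -2.75 to 1.00. For Csn3 the difference was 0.54 ± 0.46 and for Btn1a1 0.22 ± 0.45. A fall of several fold could thus be missed here for the αs- and β-casein genes. Their upper limits were 0.70, 0.53 and 1.00 on this scale, which understates fold changes of low genes. The interaction of genotype and parity over the 15 basal libraries called 0 of the 4 genes tested, where 0% of all genes tested passed with limma, 1082 had an unadjusted p under 0.05, DESeq2 called 18 and edgeR 0. For none of the 4 was the unadjusted p under 0.05. The interaction for Csn3 was 1.28 ± 0.69 (adjusted p = 0.539), with a 95% interval from -0.17 to 2.74.

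The make-up of the milk protein reads was then set side by side in both lineages. In parous K8imTmG luminal libraries Csn1s1 took 39.9% ± 1.69 of the reads of the 6 genes (SD, n = 5), Csn3 33.3% ± 11.2, Csn2 12.2% ± 6.56, Csn1s2a 8.27% ± 3.80, Btn1a1 5.84% ± 1.78 and Lalba 0.422% ± 0.333. In the basal libraries of the same stage and genotype Csn1s1 took 38.7% ± 4.03, Csn3 30.8% ± 5.86, Csn2 14.3% ± 7.53, Csn1s2a 9.46% ± 3.69, Btn1a1 5.30% ± 3.72 and Lalba 1.44% ± 2.56 (n = 4). Each mean of the basal make-up thus lay within 1 SD of the luminal one for the caseins and Btn1a1. No test was made of this likeness.

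In luminal cells the parous K8iΔRank libraries had less αs1-casein in the mix. Csn1s1 took 13.0% to 33.6% of the 6 genes' reads in their luminal libraries, below the 38.6% to 42.7% of the K8imTmG ones. Csn3 led in all 4 with 31.5% to 71.6%, whereas in K8imTmG it led in 1 of 5. Lalba took 1.23% to 5.59%, above the 0.0981% to 0.881% of K8imTmG. In parous K8iΔRank basal libraries Csn3 led in 3 of 4, the exception being mouse 787, in which Csn1s1 took 47.0% of the reads and Csn3 12.5%. In virgin luminal libraries Csn3 took 70.0% to 80.1% in K8imTmG and 80.2% to 93.0% in K8iΔRank, and Btn1a1 was the next gene in all 6 libraries.

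**Figure D3:**
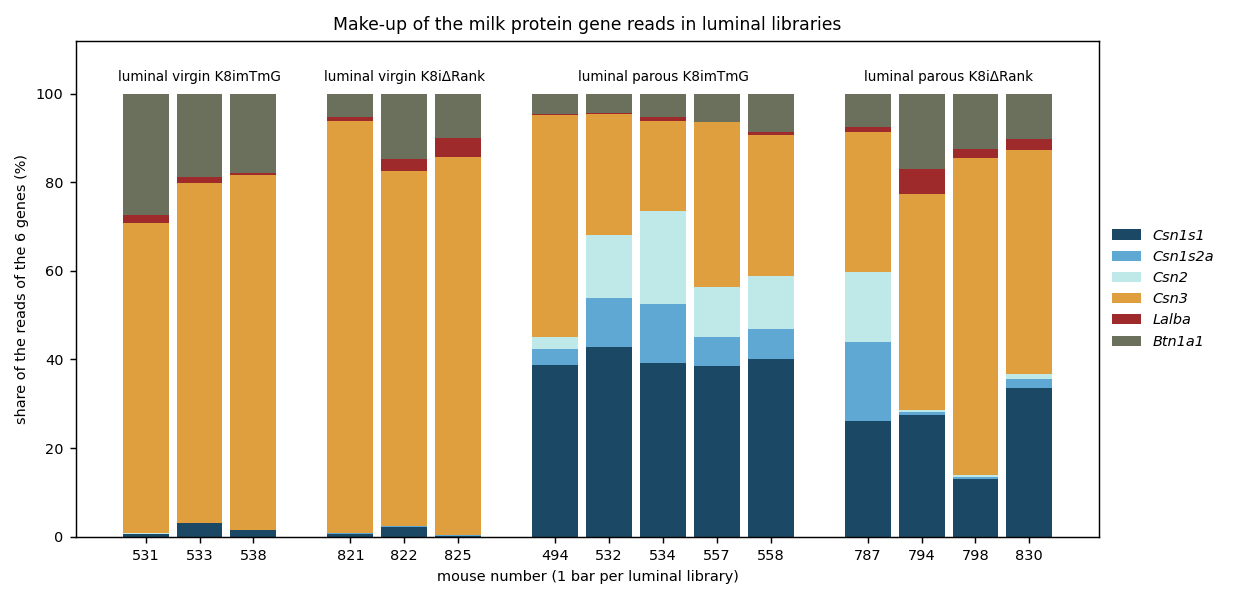
Share of the reads of the 6 milk protein genes taken by each gene (percent, stacked to 100) in each of the 15 luminal libraries, grouped by stage and genotype, with the mouse under each bar. Csn3 fills most of the virgin bars, and Csn1s1 takes 38.6% to 42.7% of the parous K8imTmG luminal ones.

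The lineages were compared directly within each stage and genotype. In parous K8imTmG mice all 6 genes were higher in luminal cells, where 30.7% of all genes tested differed between lineages in either direction. The log2 difference was 4.96 ± 0.42 for Csn1s1, 4.62 ± 0.59 for Csn1s2a, 4.54 ± 0.84 for Csn2, 4.98 ± 0.37 for Csn3 and 5.13 ± 0.32 for Btn1a1. That of Lalba was 3.41 ± 0.78 (adjusted p = 0.00591), with 2 basal reads in all, so that the scaled ratio was 41.2 with a counting interval from 11.3 to 342. For the 5 other genes the highest adjusted p was 0.00157, that of Csn2. Within the Clec2d-high libraries, 2 luminal and 4 basal, all 5 genes tested passed, where 2348 of 10749 genes tested did. Lalba did not pass the filter.

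In parous K8iΔRank mice 4 of the 6 genes were higher in luminal cells, where 37.0% of all genes tested differed. Csn3 differed by 3.89 ± 0.34 (adjusted p = 4.56e-06), Btn1a1 by 4.74 ± 0.27 (adjusted p = 1.60e-07), Lalba by 4.62 ± 0.53 (adjusted p = 3.25e-05) and Csn1s1 by 3.70 ± 0.64 (adjusted p = 7.82e-04). Csn1s2a (3.07 ± 1.47, adjusted p = 0.125) and Csn2 (1.49 ± 1.20, adjusted p = 0.358) did not pass. With the mouse as a replicate block, both did (adjusted p = 0.00463 and 0.0392). Among the Clec2d-low libraries, 4 luminal and 2 basal, the same 4 genes passed, where 3246 of 10567 genes tested did.

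In virgin K8imTmG mice both genes tested were higher in luminal cells, Csn3 by 3.45 ± 0.50 (adjusted p = 8.86e-04) and Btn1a1 by 3.64 ± 0.56 (adjusted p = 0.00127), where 36.2% of all genes tested differed. In virgin K8iΔRank mice 3 of the 4 genes tested were higher, where 35.9% of all genes tested differed. Csn3 differed by 6.35 ± 0.26 (adjusted p = 8.90e-07), Btn1a1 by 4.43 ± 0.33 (adjusted p = 1.06e-05) and Lalba by 5.49 ± 0.54 (adjusted p = 4.71e-05). Lalba had 0 basal reads, and its luminal mean was at least 18.3-fold above the mean basal floor. Csn1s1 differed by 2.64 ± 0.94 (adjusted p = 0.0516), and the call was made by DESeq2 (0.0138), edgeR (0.0358) and limma with a pseudocount of 4 (0.0444). In both virgin comparisons lineage and the Clec2d split cannot be told apart.

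Since 13 mice gave both lineages, the basal level was also expressed as a percent of the luminal level of the same mouse. For Csn1s1 it was 6.60%, 2.78%, 1.11% and 3.77% in parous K8imTmG mice 532, 534, 557 and 558, and 15.2%, 3.24%, 21.7% and 3.00% in parous K8iΔRank mice 787, 794, 798 and 830. These ranges overlapped. For Csn2 it was 8.72%, 3.42%, 0.537% and 3.39% in the K8imTmG mice and 9.52%, 54.1%, 83.6% and 32.1% in the K8iΔRank mice. The 0.537% of mouse 557 rests on 1 basal read, which is below the floor. In mice 794 and 798 the luminal level of Csn2 was itself low, at 8.84 and 9.48 normalized counts, so a large percent here means 2 low levels.

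For Csn3 the basal level was 0.986% to 7.01% of the luminal one in parous K8imTmG, 3.34% to 13.2% in parous K8iΔRank and 6.85% and 15.5% in the 2 virgin K8imTmG mice. In the 3 virgin K8iΔRank mice it was 0.914%, 1.70% and 1.03%, the lowest of the 4 conditions in their median. Btn1a1 was at 1.15% to 3.95% in parous K8imTmG, 1.81% to 7.51% in parous K8iΔRank, 2.10% to 5.85% in virgin K8iΔRank and 2.75% and 14.9% in virgin K8imTmG.

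The same percent was computed for luminal markers. Krt8 in basal cells was 23.6% to 31.5% of its luminal level in parous K8imTmG mice and Krt19 0.685% to 7.28%, so the keratins differed widely from each other. Krt18 in basal cells was 5.13% to 9.47% of its luminal level in parous K8imTmG mice and 7.69% to 12.8% in parous K8iΔRank mice. The median over the 18 luminal markers was 1.78% to 8.52% and 3.66% to 9.67% in the same mice. The 6 milk protein genes summed were at 1.16% to 6.81% and 5.50% to 8.68%. Single markers ran from 0.775% to 223% in K8imTmG mouse 534 and from 1.17% to 61.6% in K8iΔRank mouse 787. A sum within so wide a span says little. In virgin K8iΔRank mice the sum was at 1.29% to 1.71%, against 7.75% to 18.3% for Krt18 and 2.28% to 5.67% for the median marker. In virgin K8imTmG mice 531 and 538 the sum was at 5.55% and 16.9%, Krt18 at 8.92% and 5.84% and the median marker at 8.34% and 8.31%. The sum was thus below Krt18 and the median marker in mouse 531 and above both in mouse 538. Krt5, a basal keratin, was in turn 0.247% to 1.89% of its basal level in luminal libraries. Whether basal reads of these genes came from luminal RNA was not tested.

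**Figure D4:**
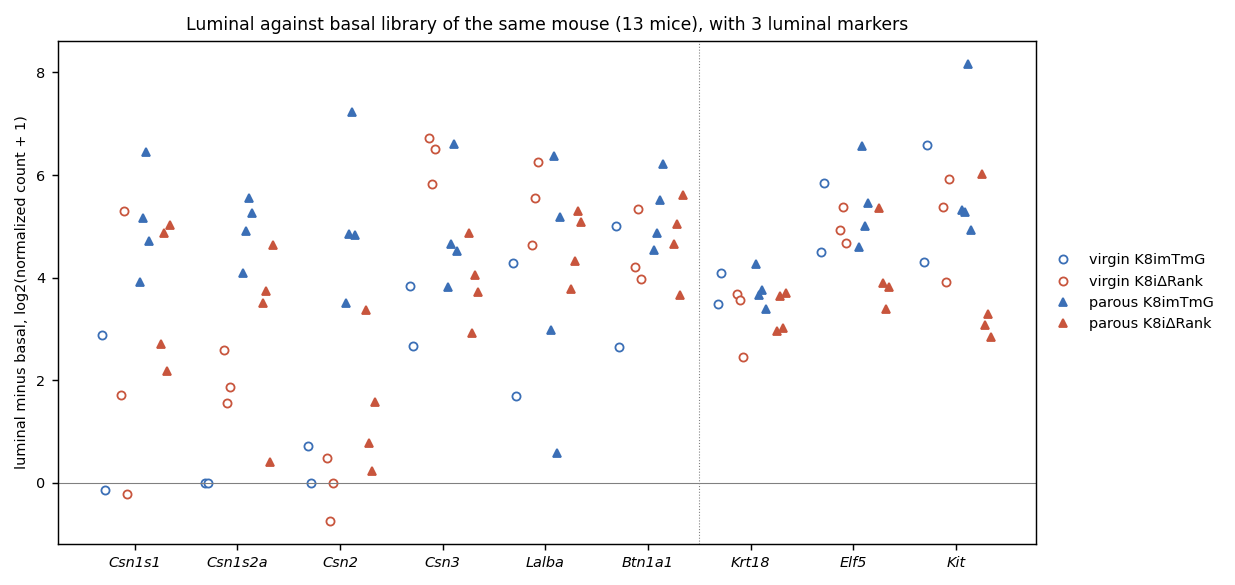
Log2 luminal minus basal level of each milk protein gene and of 3 luminal markers within a mouse, with 1 point per mouse of the 13 with both lineages and the 4 conditions in colours. The 3 virgin K8iΔRank mice have the highest mean for Csn3, although 1 parous K8imTmG mouse lies among them, and the mean of Csn2 is lower in parous K8iΔRank than in parous K8imTmG mice.

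The within-mouse log2 ratio of luminal to basal was tested between conditions. Between virgin and parous K8imTmG mice, 2 against 4, 1 of the 6 genes passed, where 0.0546% of all genes tested did. This was Csn1s2a, with a difference of 4.95 ± 0.58 (adjusted p = 0.0126), but it had 0 reads in both lineages of both virgin mice, so their ratio of 0 on the log2 scale carries no information on lineage. The call was lost without mouse 532 (0.0738), 534 (0.0886), 558 (0.116) or 538 (0.122). The differences were 4.74 ± 0.86 for Csn2 (adjusted p = 0.0576) and 3.69 ± 0.82 for Csn1s1 (adjusted p = 0.0997).

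Between virgin and parous K8iΔRank mice, 3 against 4, 1 of the 6 genes passed, where 0.843% of all genes tested did. This was Csn3, whose ratio was lower in parous mice by 2.46 ± 0.44 on the log2 scale, with a fitted difference of -2.46 (adjusted p = 0.0442). Its mean log2 ratio was 6.35 ± 0.47 (SD, n = 3) in virgin and 3.89 ± 0.81 (n = 4) in parous K8iΔRank mice. The call was lost without parous mouse 794 (0.0867) or 830 (0.145), or virgin mouse 821 (0.144), 822 (0.103) or 825 (0.0625). All 3 virgin mice had a Clec2d-high luminal and a Clec2d-low basal library, whereas 2 of the 4 parous mice had both libraries low and 2 a low luminal with a high basal one, so the split cannot be told apart from stage here.

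Between genotypes in parous mice, 4 against 4, the ratio of 0 of the 6 genes passed with limma, where 0.0272% of all genes tested did. At an unadjusted p under 0.05, 2 of the 6 genes and 1261 of all genes were past it, and count tools were not run on ratios. The basal libraries were Clec2d-high in all 4 K8imTmG mice and in 2 of the 4 K8iΔRank mice, and the part of the split was not tested. For Csn2 the mean log2 ratio was 5.10 ± 1.55 in K8imTmG and 1.49 ± 1.37 in K8iΔRank mice (SD, n = 4 each), a difference of -3.61 ± 0.78 (adjusted p = 0.153) with a 95% interval from -5.31 to -1.91. For Csn1s2a it was -1.89 ± 0.75 (adjusted p = 0.375) and for Csn1s1 -1.36 ± 0.68 (adjusted p = 0.476).

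Levels in the 2 lineages of a mouse ran together for some genes. Across the 8 parous mice with both lineages, Pearson's r between luminal and basal log2 levels was 0.82 for Csn1s2a (Spearman's rho = 0.88), 0.66 for Csn2 (0.62) and 0.38 for Csn1s1 (0.43). For Csn3 it was -0.43 (-0.31) and for Btn1a1 -0.49 (-0.45). Mouse 787 had the highest luminal and the highest basal Csn1s2a and Csn2 of the 4 parous K8iΔRank mice. The 2 libraries of a mouse are linked by the number in their titles and the 8 mice span both genotypes, and these values are descriptions.

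Other genes of milk secretion and of the lactogenic pathway were read from 2 lists. Of 38 secretory genes other than the 6 above, 25 were in the table, whereas Wap, Glycam1, Csn1s2b and 10 others were not analysed here. In K8imTmG luminal cells 6 of 24 tested rose with parity and 0 fell, where 2.20% of all genes tested changed. The median log2 fold change was 0.86 against -0.01 over all genes. Spp1, which encodes osteopontin, a phosphoprotein secreted into milk, rose by 5.38 ± 0.73 (adjusted p = 0.0227). Lpl, the lipoprotein lipase that supplies fatty acids for milk fat, rose by 3.18 ± 0.53 (adjusted p = 0.0278), and Cel, the bile salt-stimulated lipase of milk, by 3.09 ± 0.50 (adjusted p = 0.0270). Muc15, Trf and Pigr were the others that rose. These calls rest on single libraries, since 0 of the list passed without parous mouse 532 or virgin mouse 531 or 533, and 1 without parous mouse 557 or 558 or virgin mouse 538. Spp1 was called in 5 of the 8 fits with 1 library left out, and Lpl and Cel in 2.

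In K8iΔRank luminal cells 9 of 24 tested secretory genes rose with parity and 2 fell, where 16.0% of all genes tested changed. The median was 0.54 against 0.03 over all genes, and parity and the Clec2d split cannot be told apart here. Spp1 rose by 3.26 ± 0.35 (adjusted p = 0.00118), Muc1, a mucin of the milk fat globule membrane, by 1.88 ± 0.23 (adjusted p = 0.00178) and Trf, the iron carrier transferrin, by 1.64 ± 0.22 (adjusted p = 0.00236). Cel rose by 2.22 ± 0.63 (adjusted p = 0.0374), from 1.32 to 7.69 in virgin to 7.25 to 47.2 in parous libraries. With 1 library left out 6 to 10 of the list rose, and Spp1, Muc1 and Trf did in all 7 fits but Cel in 2. Scd2 and Aqp5 fell, in 1 and 2 of these fits. The interaction of genotype and parity was called for Lpl alone of the 24 tested, where 12.9% of all genes tested passed. Its value was -2.64 ± 0.80 (adjusted p = 0.0429), and it was called in 6 of 15 fits with 1 library left out. The Clec2d split changed along with this interaction too, and its part was not tested. In basal cells 0 of 20 secretory genes in K8imTmG and 0 of 21 in K8iΔRank passed with limma for parity, where 0% of all genes tested did. At an unadjusted p under 0.05 there were 7 and 6, against 969 of 10538 and 1036 of 10525 over all genes. DESeq2 called 1 of the list in each genotype, a fall, among 44 and 91 genes in all, and edgeR 0 of the list.

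All 23 genes of the lactogenic list were in the table. In K8imTmG luminal cells 1 of 22 tested rose with parity and 2 fell, where 2.20% of all genes tested changed. The gene that rose was Id2, an inhibitor of differentiation needed for alveolar growth (1.15 ± 0.25, adjusted p = 0.0471). Caveolin-1 (Cav1), which restrains Jak2 and Stat5 signalling, fell by 2.60 ± 0.50 (adjusted p = 0.0371) and Ptpn1, a phosphatase acting on this pathway, fell by 1.56 ± 0.24 (adjusted p = 0.0240). With 1 of the 8 libraries left out Ptpn1 was called in 4 fits, Cav1 in 2 and Id2 in 1, and 0 of the list passed without parous mouse 532 or any 1 of the virgin mice. In K8iΔRank luminal cells 0 of 22 rose and 3 fell, where 16.0% of all genes tested changed. Those that fell were Cav1 by 1.94 ± 0.28 (adjusted p = 0.00311), Stat5a by 1.33 ± 0.38 (adjusted p = 0.0379) and Socs3, a cytokine signalling inhibitor, by 1.96 ± 0.58 (adjusted p = 0.0413). Parity and the Clec2d split cannot be told apart in these libraries. The basal markers summed to 121 to 351 in the virgin and 82.0 to 121 in the parous ones, and their part was not tested. Cav1 was called in all 7 fits with 1 library left out, and Stat5a and Socs3 in 2 each. For the interaction only Ptpn1 was called of the 22 genes tested, where 12.9% of all genes tested passed. Its value was 2.02 ± 0.30 (adjusted p = 0.00765), and it was called in all 15 fits with 1 library left out. The Clec2d split changed along with this contrast, which leaving out 1 library does not address, and its part was not tested.

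The receptor and transcription factors upstream of the caseins did not pass for parity in K8imTmG luminal cells. Prlr was at 5943 to 7604 in virgin and 464 to 4067 in parous libraries, which did not overlap (log2 fold change -2.13 ± 0.63, adjusted p = 0.101). Elf5 was at 56.7 to 119 in virgin and 148 to 345 in parous libraries, which did not overlap either (1.36 ± 0.34, adjusted p = 0.0726). Of all genes 16.3% did not overlap in this comparison. Stat5a and Stat5b were at 86.1 to 197 and 135 to 188 in virgin and at 76.8 to 198 and 89.0 to 130 in parous libraries. In K8iΔRank luminal libraries Elf5 was at 105 to 154 in virgin and 110 to 199 in parous mice, and Prlr at 3225 to 6308 and 1678 to 4761.

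Between genotypes in luminal cells 0 secretory genes and 0 lactogenic genes passed with limma, where 0.984% of all genes tested changed in virgin and 0.0991% in parous mice. At an unadjusted p under 0.05 there were 8 of 23 and 5 of 22 in virgin mice, and 5 of 24 and 10 of 22 in parous mice. Over all genes these were 2226 of 10066 and 2009 of 10090. DESeq2 called 5 of 23 and 1 of 22 in virgin mice and 3 of 24 and 5 of 22 in parous mice, and edgeR 0. Over all genes DESeq2 called 648 of 10066 in virgin and 611 of 10090 in parous mice, and edgeR 138 and 20. Between genotypes in virgin basal cells limma called 3 of 20 secretory and 2 of 21 lactogenic genes, all higher in K8iΔRank. There 8.99% of all genes tested changed, and genotype and the Clec2d split cannot be told apart. In parous basal cells it called 0 of 21 and 1 of 20, where 0.906% of all genes tested changed. The gene called was Cish, a target and inhibitor of Stat5 signalling. Cish was at 58.2 to 111 in K8iΔRank and 18.7 to 35.3 in K8imTmG, a log2 difference of 1.71 ± 0.29 (adjusted p = 0.0382). This call was lost in 6 of the 8 fits with 1 library left out, where the adjusted p reached 0.134, in the Clec2d-high libraries (0.313) and without the filter (0.0557). The 17 luminal markers tested had a median log2 difference of 0.67 in the same direction, 1 of them called, and their part in the result was not tested. Cish falls outside the rule for naming genes and was picked after its values were seen.

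Genes outside the 6 whose levels ran most alike were ranked by the median Pearson's r over the 6 members on the log2 scale. Across the 15 luminal libraries, of 11124 genes, these were Plb1 (0.87), Trf (0.85), Slc43a2 (0.82), Tnc (0.82) and C530043A13Rik (0.82). Plb1, a phospholipase, was at 27.2 to 96.8 in virgin K8imTmG, 60.6 to 75.0 in virgin K8iΔRank, 119 to 374 in parous K8imTmG and 110 to 219 in parous K8iΔRank luminal libraries. Tnc, which encodes the matrix protein tenascin C, was at 0 to 4.49, 0 to 6.31, 8.40 to 55.2 and 5.40 to 30.4 in the same order. Across the 15 basal libraries the genes most alike were Cib1 (0.70), Nrg1 (0.70), Tsr1 (0.65), Erap1 (0.65) and Ntrk3 (0.64), and none of these was among the 5 of the luminal ranking. The libraries behind each r share stage, genotype, depth and the Clec2d split.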

How the data were processed

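RNA from FACS-sorted luminal and basal mammary cells was profiled by 3′ sequencing (QuantSeq, with molecular identifiers). Reads had been trimmed with BBDuk, collapsed with UMI-tools, aligned with Bowtie2 to GRCm39 and counted on Gencode vM26. The authors deposited counts divided by DESeq2 size factors (a signal, not raw counts), and kept a gene only where over 10 such counts were reached by 25% or more of the libraries. In each library these values were whole multiples of the worth of 1 read for 100% of genes (tolerance 0.01), and reads were recovered from that step for the count tests.

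Groups were taken from the labels, and 0 columns were left unused. The 43 pairs of libraries within a group all differed beyond sampling noise (chi-square per degree of freedom of at least 2.67). The main test was limma (3.58.1, R 4.3.3) with a mean-variance trend on log2(normalized count + 1), fitted on the groups compared, with the same limit on low values set over those libraries, with Benjamini-Hochberg adjustment over all genes tested at 0.05. Fold changes are on this scale and understate those of low genes. Results were recomputed with a pseudocount of 0.5 or 4, without that limit, with DESeq2 (1.42.0) and edgeR (4.0.16) on recovered reads, all 30 libraries in one fit, the mouse as a replicate block, libraries of 1 Clec2d side (divided at 30 normalized counts) and each library left out. The code was checked on simulated data.

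Luminal and basal libraries with the same mouse number in their titles were taken as coming from the same mouse, so ratios were fitted within mice. Their deviations from the group means had a median r of 0.0897 (-0.238 to 0.341), over 0.1 in 6 of 13 mice. Apart from the mouse number nothing marks separate collections, so p-values measure the spread between these samples. Counting intervals are exact 95% intervals on pooled reads and, like the floor of 3 reads, cover counting error only. Promoters were taken from RefSeq (GRCm38.p6), and gene positions from a GRCm39 annotation. The genes named were the 6 members, 5 genes most alike in each lineage, 8 preset genes of the lists and up to 3 genes per list with the lowest adjusted p under 0.05 for parity, besides Clec2d and Tnfrsf11a. Members and lists were chosen with earlier results of these data known.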

Additional observations from a re-analysis of the deposited data

Results flagged for a closer look

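In 4 cases the effect of a contrast differed between groups by a test of the difference itself. The effect of parity in luminal cells differed between K8iΔRank and K8imTmG by -5.31 ± 1.53 on the log2 scale for Csn1s2a (adjusted p = 0.0359, limma) and by -2.70 ± 0.45 for Csn3 (adjusted p = 0.00765). Csn1s2a rests on virgin K8imTmG libraries with 0 reads, and Csn3 on virgin K8iΔRank libraries that were already as high as parous ones. The effect of parity differed between luminal and basal cells of K8imTmG mice by 4.95 ± 0.58 for Csn1s2a (adjusted p = 0.0126), where both virgin mice had 0 reads in both lineages. In K8iΔRank mice it differed by -2.46 ± 0.44 for Csn3 (adjusted p = 0.0442). The Clec2d side of luminal libraries changed with each of these contrasts, in the third for 1 of 4 parous mice, and its part in the differences was not tested. Among the 28 sets of 4 or 5 libraries examined for a library standing apart from its group, 0 held one, where chance gives 1.4.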

How the results depend on the processing

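Each comparison gave a count of milk protein genes called. Under settings other than left-out libraries 11 of the 17 counts stayed within 1.5 times. For parity in K8imTmG basal cells the count went from 0 to 1 with a pseudocount of 4, DESeq2 or edgeR and to 2 with all libraries in one fit. In K8iΔRank basal cells it went from 0 to 3 with DESeq2 and 2 with all libraries in one fit. For genotype it went from 1 to 0 without the filter and to 2 with DESeq2 in virgin luminal cells, and from 0 to 1 in parous luminal cells with DESeq2 or all libraries in one fit. For lineage in virgin K8iΔRank mice it went from 3 to 5 without the filter, which lets low genes in, and for the ratio by parity in K8imTmG mice from 1 to 3 with a pseudocount of 4.

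Leaving out 1 library or mouse gave 3 to 5 genes for parity in K8imTmG luminal cells and 1 to 4 in K8iΔRank ones. It gave 0 to 1 and 0 in the basal cells of the 2 genotypes, 0 to 2 for genotype in virgin luminal cells, 3 to 4 and 4 to 5 for lineage in virgin and parous K8iΔRank mice and 1 to 3 for the luminal interaction. The ratio by parity gave 0 to 2 genes in K8imTmG and 0 to 1 in K8iΔRank mice. Of 499 fold changes of single genes under other settings, 463 kept direction and call, and 640 of 692 did so with a library left out. Small differences that changed sign were those of Btn1a1 for genotype in parous basal cells (-0.157 in Clec2d-high libraries) and of Lalba for the ratio by parity in K8iΔRank mice (0.00118 with a pseudocount of 4). With a library left out, Btn1a1 also did for basal parity in K8imTmG (-0.0125 to 0.520), virgin basal genotype (-0.249 to 0.138), the basal interaction (-0.0603 to 0.472) and the K8iΔRank ratio by parity (-0.0461 to 0.657). Lalba did so for the ratio by parity in K8imTmG (-0.516 to 2.09) and the ratio by genotype (-0.222 to 1.71). The cause was not tested.

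Counts over all genes moved further. For parity in K8imTmG luminal cells 226 genes became 106 without the filter, 1060 with DESeq2, 851 with all libraries, 1285 on the Clec2d-low side, 3 without parous mouse 532 and 732 without parous mouse 494. In K8iΔRank 1643 became 406 with all libraries and 729 without parous mouse 830. For genotype in virgin luminal cells 99 became 5, 648 and 188 without the filter, with DESeq2 and with all libraries, and 0 to 247 with a library left out. In parous luminal cells 10 became 611 with DESeq2, 20 with edgeR, 97 with all libraries, 42 on the Clec2d-low side and 0 to 21 with a library left out. In virgin basal cells 954 became 2155 with all libraries and 281 without mouse 825. In parous basal cells 96 became 186, 11, 645, 360 and 0 with a pseudocount of 4, no filter, DESeq2, all libraries and the Clec2d-high side, and 0 to 1050 with a library left out. The luminal interaction went from 1326 to 1990 with DESeq2 and 336 without virgin mouse 538. Basal parity reached 56 and 5 with all libraries. The ratios by parity in K8imTmG, by parity in K8iΔRank and by genotype went from 6, 92 and 3 to 14, 1162 and 0 with no replicate block, and the first and last to 72 and 8 with a pseudocount of 4. Adding the replicate block to the lineage comparisons changed the calls of Csn1s2a and Csn2 in parous K8iΔRank mice. Depth limits the basal values of virgin K8imTmG mice most.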
